A study of Mus musculus with 10 samples.

Results

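The genes of the cytoplasmic intermediate filaments were followed across 5 cell types of the mouse cochlea: vimentin (*Vim*), nestin (*Nes*), the keratins *Krt8*, *Krt18* and *Krt19*, the neurofilament chains *Nefl*, *Nefm* and *Nefh*, and peripherin (*Prph*). They were taken by symbol from every count file by a rule that uses no measured value, although the choice of this family was made with earlier results of these data known, and are 9 of the 34590 genes listed. A filter on low counts kept 8 of the 9. *Prph* had 0 counts in all 10 libraries and was not tested.

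Intermediate filaments are rope-like polymers that give a cell mechanical strength and anchor its nucleus, organelles and junctions. Keratins assemble in obligate pairs of one type II chain, such as the product of *Krt8*, and one type I chain, such as those of *Krt18* or *Krt19*, and these pairs are typical of simple epithelia. Vimentin is the filament of mesenchymal cells and of cochlear supporting cells, nestin is known from progenitor cells, and the light, medium and heavy neurofilament chains (*Nefl*, *Nefm* and *Nefh*) co-assemble in neurons, where they set axon calibre.

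The study asked how far supporting cells (SCs) of the postnatal organ of Corti change towards hair cells when the transcription factor Atoh1 is switched on in them, and RNA from hand-picked fluorescent cells was sequenced in bulk with 2 libraries per cell type. SCs (P26 and P27) came from Fgfr3iCreER+ mice with a tdTomato reporter behind a loxP-flanked stop in Rosa26. Converted hair cells (cHCs, both P33) came from mice with the same 2 alleles plus the Atoh1-HA transgene and alpha9 AChR-EGFP, a hair cell reporter, and both groups had received tamoxifen in the second postnatal week. Fgfr3iCreER is active in Deiters' and pillar cells, so SCs and cHCs stand for these supporting cells and not for all of them. Mature outer hair cells, named OHCs (P22) after the study although the 2 labels read as days 21 and 22, and OHCs (P7) are both labelled as prestin-YFP knock-in mice, whereas the supplement of the study lists a prestin-driven inducible Cre with tdTomato for OHCs (P7). The supplement also lists tamoxifen in the first postnatal week for OHCs (P7) and gives it as not applicable for OHCs (P22) and inner hair cells. Inner hair cells (IHCs, read as days 74 and 75) came from mice with Pval-Cre and, by the study's supplement, the same tdTomato reporter, and carry no Atoh1-HA. Their titles name the reporter Ai9, whereas the study's methods name its tdTomato mice Ai14. The study calls the 2 libraries of a cell type biological duplicates. The labels do not say whether the 2 cHC or the 2 P7 libraries came from separate animals. The p-values therefore describe the spread between these libraries, which may be partly technical. The library numbers in the labels form 1 run for SCs (11 and 12), OHCs (P7) (14 and 15) and cHCs (13 and 16) and a separate, higher run for OHCs (P22) and IHCs, and in comparisons across these runs the run and the cell type cannot be told apart. Libraries of the latter groups are named here by day. Their titles put the letter m before days 21, 74 and 75 and f before day 22. If these letters stand for sex, the OHC (P22) libraries differ in sex as well as in day.

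The counts on genes summed to between 15016129 and 40518766 in each library, and 3 counts corresponded to between 0.0762 and 0.264 CPM (counts scaled to a common library total with TMM factors, the unit of all levels here). The files of 4 libraries were attached to another sample record and were assigned by their own names and by the values of the study's expression table. The day-21 library of OHCs (P22) stood apart, with a TMM factor of 0.5825 against 0.9298 to 1.199 in the other libraries and the fewest genes detected, 14332. Summed over 9 hair cell marker genes, levels were 363 to 364 CPM in SCs and between 4454 and 7205 CPM in the 4 hair cell groups. *Slc26a5*, which encodes prestin, the OHC motor protein, lay between 2749 and 3789 CPM in OHCs (P22), between 1061 and 1094 CPM in OHCs (P7) and at most at 97.6 CPM elsewhere. An 8-gene supporting cell list summed to between 820 and 1649 CPM in SCs and cHCs, 196 to 297 CPM in OHCs (P7), 8.42 to 14.3 CPM in OHCs (P22) and 638 to 806 CPM in IHCs. Its members did not move together: *Fgfr3* (458 and 431 CPM) and *Prox1* (247 and 294 CPM) made up most of the cHC sums, with *Sox2*, *Sox9*, *Hes1*, *Jag1* and *Gjb2* below the SC libraries, and *Gjb2* (611 and 468 CPM) most of the IHC sums. In bulk samples, fewer cells of a type and less RNA per cell cannot be told apart.

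Promoter sequence was taken for the members with an entry in the RefSeq table (build GRCm38.p6), which were *Vim*, *Nes*, *Krt8*, *Krt18* and *Prph*; *Krt19*, *Nefl*, *Nefm* and *Nefh* had none. The 250 bases before the transcription start of the SC-abundant vimentin gene and of the neighbouring pair *Krt8* and *Krt18* are shown 5′ to 3′ on the strand of the gene, because these 3 genes are the members with an entry whose mean in SCs was 86.4 CPM or more. Capitals mark the letters TATAAA, the TATA box, and CANNTG, the E-box that basic helix-loop-helix factors such as Atoh1 recognise.
Vim, chr2:13574061-13574310, plus strand: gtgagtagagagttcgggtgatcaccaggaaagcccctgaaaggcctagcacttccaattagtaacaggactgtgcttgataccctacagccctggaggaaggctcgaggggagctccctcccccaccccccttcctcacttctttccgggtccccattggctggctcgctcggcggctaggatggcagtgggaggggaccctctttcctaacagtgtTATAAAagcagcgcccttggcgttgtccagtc
Krt8, chr15:102004343-102004592, minus strand: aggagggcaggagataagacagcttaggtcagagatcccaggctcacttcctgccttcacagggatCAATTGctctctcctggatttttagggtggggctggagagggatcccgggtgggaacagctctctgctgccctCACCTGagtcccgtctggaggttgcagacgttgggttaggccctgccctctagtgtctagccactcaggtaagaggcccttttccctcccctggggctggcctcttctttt
Krt18, chr15:102027966-102028215, plus strand: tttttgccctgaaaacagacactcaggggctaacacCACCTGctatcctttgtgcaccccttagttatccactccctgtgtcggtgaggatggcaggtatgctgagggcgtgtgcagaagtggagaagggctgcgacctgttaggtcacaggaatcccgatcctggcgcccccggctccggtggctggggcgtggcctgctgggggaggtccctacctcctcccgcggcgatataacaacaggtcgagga
*Vim* had TATAAA at bases 32 to 27 before the start and no E-box. *Krt8* had E-boxes at bases 184 to 179 and 111 to 106, *Krt18* had 1 at bases 214 to 209, and neither had TATAAA in this window. *Prph*, which was not detected in any library, had TATAAA at bases 31 to 26, and *Nes* had neither motif. On both strands of 32851 promoters of the same length, 12.4% held TATAAA and 66.2% held CANNTG, so an E-box match is common and is given as a description only.

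On mm9, the build of the counts, *Nefm* (chromosome 14, 68700647 to 68742903, minus strand) and *Nefl* (68701920 to 68707152, plus strand) overlap. They share 1108 exonic bases on opposite strands, at 68701920 to 68703027. Of the 147 genes of the annotation whose exons lie wholly under exons of the opposite strand, 146 had 0 counts in all libraries, which means that reads in such overlaps went uncounted. The counts of *Nefl* and *Nefm* therefore come from the 2272 and 4674 exonic bases that they do not share, and levels per length use these. *Krt8* (chromosome 15, 101827142 to 101834773, minus strand) and *Krt18* (101858647 to 101862457, plus strand) are divergent neighbours 23873 bases apart. The remaining members were *Krt19* (chromosome 11, 100002124 to 100009979, minus strand), *Nefh* (chromosome 11, 4838757 to 4848067, minus strand), *Vim* (chromosome 2, 13495554 to 13504453, plus strand), *Nes* (chromosome 3, 87775000 to 87784373, plus strand) and *Prph* (chromosome 15, 98885605 to 98889409, plus strand).

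The medium neurofilament chain separated SCs from every hair cell group. *Nefm* was at 0.106 and 0.400 CPM in SCs, from 4 and 9 counts, and at 66.2 and 105 CPM in cHCs. It was at 111 and 86.3 CPM in OHCs (P7), 96.5 and 39.2 CPM in OHCs (P22), and 163 and 94.7 CPM in IHCs. The lowest hair cell library was thus far above the higher SC library, while the 4 hair cell groups overlapped. In edgeR's quasi-likelihood test with Benjamini-Hochberg adjustment over the 16891 genes tested, *Nefm* rose against SCs by 8.43 on the log2 scale in cHCs (SE 1.05, adjusted p = 0.00158). The rise was 8.64 in OHCs (P7) (SE 1.06, adjusted p = 0.00104), 8.10 in OHCs (P22) (SE 1.04, adjusted p = 0.00102) and 9.02 in IHCs (SE 1.08, adjusted p = 0.000968). These 4 comparisons share the SC libraries. Means ran in the order IHCs (129 ± 48.0 CPM, SD, n = 2), OHCs (P7) (98.8 ± 17.7), cHCs (85.6 ± 27.4), OHCs (P22) (67.9 ± 40.5) and SCs (0.253 ± 0.208), and no neighbours before SCs differed by the test. Against cHCs, the log2 difference of *Nefm* was 0.21 in OHCs (P7) (SE 0.75), -0.34 in OHCs (P22) (SE 0.75) and 0.59 in IHCs (SE 0.75), with adjusted p of 0.973, 0.850 and 0.810. All 4 calls stood with each library left out. Without SC replicate 11 the log2 change was 7.73 in cHCs and lay between 7.39 and 8.31 over the 4 groups, and without SC replicate 12 it was 9.59 in cHCs and lay between 9.25 and 10.18. In OHCs (P22) it was 7.25 without the day-21 library.

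**Figure D1:**
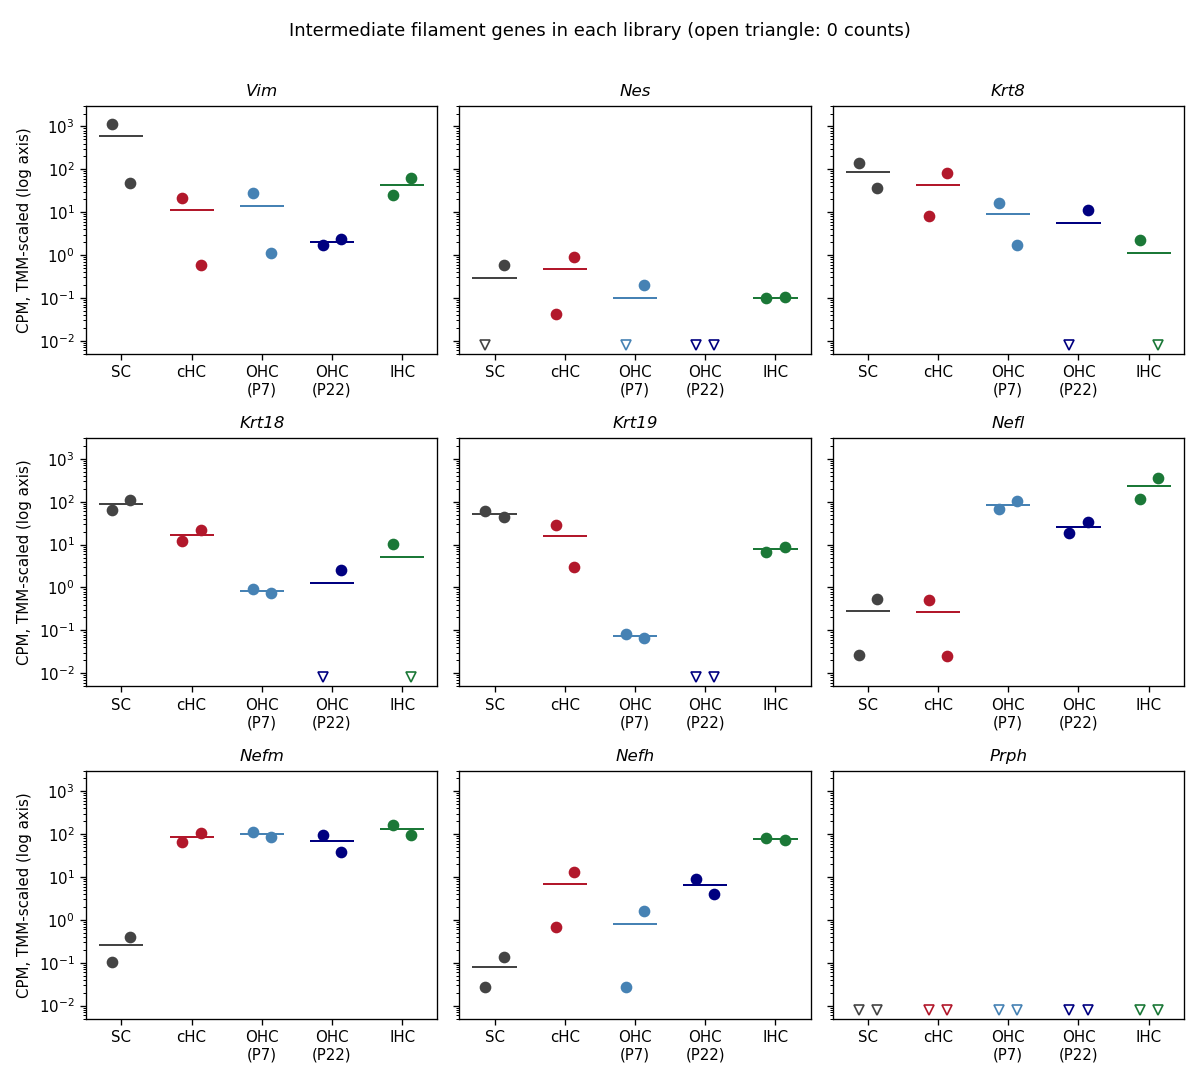
Level of each intermediate filament gene in each of the 10 libraries, as TMM-scaled CPM on a log axis; points are libraries, horizontal lines are group means, and open triangles near the lower edge are libraries with 0 counts. *Nefm* is high in every hair cell library and low in both SC libraries, *Nefl* is low in SCs and cHCs alike, and *Krt19* is at 0 in both OHC (P22) libraries.

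The light chain did not accompany the medium chain in cHCs. *Nefl* had 1 and 12 counts in SCs (0.0266 and 0.533 CPM) and 12 and 1 counts in cHCs (0.511 and 0.0254 CPM), so these groups overlapped almost completely. It was at 67.03 and 104 CPM in OHCs (P7), 19.0 and 33.1 CPM in OHCs (P22), and 115 and 358 CPM in IHCs. Every library of an endogenous hair cell type was far above every SC and cHC library. The log2 difference between cHCs and SCs was -0.06 (SE 1.33, adjusted p = 1). Against SCs, *Nefl* rose by 8.31 in OHCs (P7) (SE 1.62, adjusted p = 0.0175), by 6.60 in OHCs (P22) (SE 1.51, adjusted p = 0.0224) and by 9.78 in IHCs (SE 1.71, adjusted p = 0.0111). Against cHCs, it was higher by 6.66 in OHCs (P22) (SE 1.52, adjusted p = 0.0387) and by 9.84 in IHCs (SE 1.72, adjusted p = 0.0221). The difference of 8.37 between OHCs (P7) and cHCs (SE 1.62) had an adjusted p of 0.0692 and did not pass, with an unadjusted p of 0.000313, although it passed in 7 of 10 fits that left out 1 library, namely either library of SCs, OHCs (P22) or IHCs, or cHC replicate 13 (adjusted p between 0.0103 and 0.0392). Means ran in the order IHCs (237 ± 172 CPM, SD, n = 2), OHCs (P7) (85.3 ± 25.9), OHCs (P22) (26.1 ± 10.03), SCs (0.280 ± 0.358) and cHCs (0.268 ± 0.343). The step between OHCs (P22) and SCs was the only one between neighbours that passed the test.

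Several calls of *Nefl* depended on which of the low libraries was kept, since 1 library of each low group held 12 counts and the other held 1. Without SC replicate 11, the change was 7.31 in OHCs (P7) (adjusted p = 0.0439), 5.59 in OHCs (P22) (adjusted p = 0.0609, no longer past the threshold) and 8.78 in IHCs (adjusted p = 0.0261). Without SC replicate 12 it was 11.42, 9.70 and 12.89. Without cHC replicate 16, the differences of OHCs (P22) and IHCs from cHCs were 5.65 and 8.84, with adjusted p of 0.0956 and 0.0609, and without cHC replicate 13 they were 9.76 and 12.95 (adjusted p = 0.0219 and 0.0119). Without the day-21 library of OHCs (P22) the difference from cHCs was 6.97 (adjusted p = 0.0535). Without the day-75 IHC library, *Nefl* was higher in IHCs by 8.72 than in SCs and by 8.78 than in cHCs, and without the day-74 library by 10.37 and 10.43.

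The heavy chain was highest in IHCs. *Nefh* was at 80.7 and 72.9 CPM there, at 8.90 and 3.96 CPM in OHCs (P22), at 0.681 and 12.96 CPM in cHCs, at 0.0273 and 1.61 CPM in OHCs (P7) and at 0.0266 and 0.133 CPM in SCs, where it had 1 and 3 counts. The IHC libraries were above all others, while cHCs overlapped with both OHC groups. Means ran in the order IHCs (76.8 ± 5.48 CPM, SD, n = 2), cHCs (6.82 ± 8.68), OHCs (P22) (6.43 ± 3.50), OHCs (P7) (0.819 ± 1.12) and SCs (0.0799 ± 0.0755). No difference of *Nefh* passed the test. Its log2 difference from SCs was 9.90 in IHCs (SE 2.44, adjusted p = 0.0616), 6.41 in cHCs (SE 2.13, adjusted p = 0.203), 6.32 in OHCs (P22) (SE 2.13, adjusted p = 0.0952) and 3.33 in OHCs (P7) (SE 1.91, adjusted p = 0.362). Other fits called some of these. The difference between IHCs and SCs passed with limma-voom (adjusted p = 0.0121), with DESeq2 (adjusted p = 2.11e-07), with only the compared cell types (adjusted p = 0.0192) and in 5 of 10 edgeR fits that left out 1 library, namely either cHC library, either P7 library or the day-21 OHC (P22) library (adjusted p between 0.0149 and 0.0456). DESeq2 also called cHCs (adjusted p = 0.00246) and OHCs (P22) (adjusted p = 0.000984) against SCs. OHCs (P22) against SCs passed in edgeR without P7 replicate 14 or 15 (adjusted p = 0.0457 and 0.0456), and IHCs against OHCs (P7) passed with limma-voom (adjusted p = 0.0418) and DESeq2 (adjusted p = 0.000882). *Prph*, whose product assembles with neurofilaments in peripheral neurons, is the member listed at 0 counts throughout.

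Per kilobase of counted exon, the ratio of *Nefl* to *Nefm* was 0.0159 and 0.000498 in the cHC libraries. It was 1.24 and 2.47 in OHCs (P7), 0.404 and 1.74 in OHCs (P22) and 1.46 and 7.78 in IHCs. Light and medium chain transcripts were thus within an order of magnitude of each other in endogenous hair cells and the light chain was rare beside the medium chain in cHCs. The 3 neurofilament genes together summed to 0.0411 and 0.353 CPM per kilobase in SCs, 14.6 and 25.7 in cHCs, 53.3 and 64.5 in OHCs (P7), 31.2 and 24.0 in OHCs (P22) and 106 and 196 in IHCs.

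**Figure D2:**
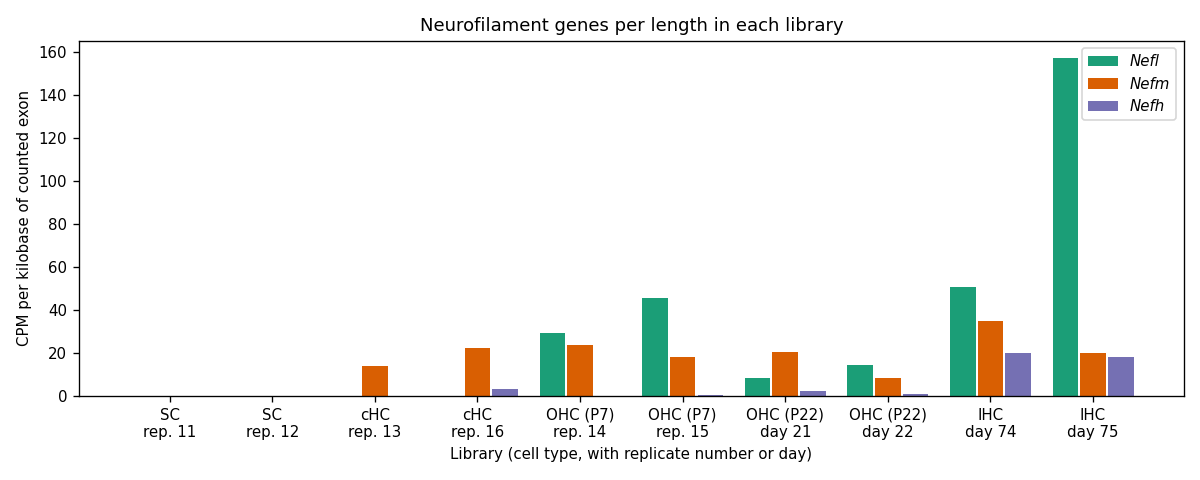
CPM per kilobase of counted exon (linear axis from 0) of *Nefl*, *Nefm* and *Nefh* in each library. In cHCs the bars are almost wholly *Nefm* (14.2 and 22.5 CPM per kilobase), while OHCs and IHCs also show *Nefl*, up to 158 CPM per kilobase in the day-75 IHC library.

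Spiral ganglion neurons, which contact hair cells, also carry neurofilaments. Of 7 spiral ganglion neuron markers, 6 are in the files, and they summed to 0.691 to 1.29 CPM in SCs, 150 to 406 CPM in cHCs, 242 to 351 CPM in OHCs (P7), 210 to 276 CPM in OHCs (P22) and 244 to 322 CPM in IHCs. *Snap25*, a protein of synaptic vesicle fusion, made up most of these sums, with 125 and 361 CPM in cHCs and 0.638 and 1.11 CPM in SCs. The neuronal tubulin *Tubb3* was at 0 in both SC libraries and at most at 1.68 CPM in any library. *Rbfox3*, the neuronal splicing factor NeuN, was at 24.7 and 44.8 CPM in cHCs and at most at 9.66 CPM elsewhere. *Stmn2*, a microtubule regulator of neurons, was highest in IHCs, at 18.6 and 2.82 CPM, and at most at 2.03 CPM elsewhere, and the RNA-binding protein *Elavl3* was at 4.24 and 0.756 CPM in IHCs and at most at 1.06 CPM elsewhere. *Gap43*, a growth cone protein, was at 0 in SCs and in OHCs (P7). The part of neuronal RNA in the neurofilament levels was not tested.

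Of the 3 keratins, *Krt19* alone passed the test, and it was lower in both OHC groups than in SCs. *Krt19*, a type I keratin, was at 62.1 and 43.9 CPM in SCs and at 29.2 and 3.07 CPM in cHCs. It fell to 3 and 1 counts in OHCs (P7) (0.0818 and 0.0671 CPM), was at 0 in both OHC (P22) libraries, and lay at 6.74 and 8.73 CPM in IHCs. SCs were thus above all other libraries, and both OHC groups were below all other libraries. The supporting cell list summed to 638 to 806 CPM in IHCs and 8.42 to 14.3 CPM in OHCs (P22). The part of supporting cell RNA in the keratin levels of IHCs was not tested. Against SCs, *Krt19* fell by 9.37 on the log2 scale in OHCs (P7) (SE 1.90, adjusted p = 0.0258). With a floor of 3 counts per library, which is 0.195 CPM on average in OHCs (P22), it was at least 272-fold lower there than in SCs (adjusted p = 0.00775) and at least 82.7-fold lower than in cHCs (adjusted p = 0.0247). The log2 difference between cHCs and SCs was -1.72 (SE 1.34, adjusted p = 0.590), and between IHCs and SCs -2.78 (SE 1.39, adjusted p = 0.328). The difference between OHCs (P7) and cHCs was -7.65 (SE 1.78), with an adjusted p of 0.143. Means ran in the order SCs (53.0 ± 12.9 CPM, SD, n = 2), cHCs (16.1 ± 18.5), IHCs (7.73 ± 1.41), OHCs (P7) (0.0745 ± 0.0104) and OHCs (P22) at 0, and no step between neighbours passed the test.

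The fall of *Krt19* in OHCs (P22) against SCs passed with each library left out. That in OHCs (P7) was lost without SC replicate 11 (adjusted p = 0.0616), P7 replicate 14 (adjusted p = 0.137) or P7 replicate 15 (adjusted p = 0.144). The difference between OHCs (P22) and cHCs was lost without cHC replicate 13, where the fitted log2 value moved from -11.76 to -9.39 (adjusted p = 0.0763), and without the day-21 (adjusted p = 0.0935) or day-22 library (adjusted p = 0.0683) of OHCs (P22). Without cHC replicate 16 it was -12.54 (adjusted p = 0.0149). The bound of 82.7-fold was 15.8-fold with cHC replicate 16 alone and 150-fold with cHC replicate 13 alone. The bound of 272-fold against SCs was 225-fold with SC replicate 12 alone and 318-fold with SC replicate 11 alone.

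The keratin pair *Krt8* and *Krt18* had no difference that passed edgeR's test. *Krt8*, the type II partner, was at 137 and 35.9 CPM in SCs, 7.999 and 80.5 CPM in cHCs, 16.6 and 1.75 CPM in OHCs (P7), 0 and 11.3 CPM in OHCs (P22) and 2.26 and 0 CPM in IHCs. SCs and cHCs overlapped, and so did the OHC groups and IHCs. *Krt18* was at 65.8 and 109 CPM in SCs, 11.8 and 21.9 CPM in cHCs, 0.928 and 0.739 CPM in OHCs (P7), 0 and 2.61 CPM in OHCs (P22) and 10.5 and 0 CPM in IHCs. The mean of *Krt8* was 86.4 ± 71.5 CPM (SD, n = 2) in SCs, 44.2 ± 51.2 in cHCs, 9.18 ± 10.5 in OHCs (P7), 5.64 ± 7.98 in OHCs (P22) and 1.13 ± 1.60 in IHCs, and that of *Krt18* 87.2 ± 30.4, 16.9 ± 7.12, 0.833 ± 0.134, 1.31 ± 1.85 and 5.27 ± 7.46. Both SC libraries of *Krt18* were above all others and both cHC libraries above those of OHCs and IHCs. The largest differences of the pair from SCs were -6.70 for *Krt18* in OHCs (P7) (SE 2.55, adjusted p = 0.195), -6.25 for *Krt8* in IHCs (SE 2.67, adjusted p = 0.263) and -6.03 for *Krt18* in OHCs (P22) (SE 2.47, adjusted p = 0.158). Between cHCs and SCs the log2 difference was -0.97 for *Krt8* (SE 2.14, adjusted p = 0.893) and -2.37 for *Krt18* (SE 2.08, adjusted p = 0.644). Other fits called some of these. *Krt18* in OHCs (P22) against SCs passed with limma-voom (adjusted p = 0.0428), with DESeq2 (adjusted p = 0.00706), and in edgeR without the day-74 or day-75 IHC library (adjusted p = 0.0480 and 0.0436). In OHCs (P7) against SCs it passed with DESeq2 (adjusted p = 0.00350), with only the compared cell types (adjusted p = 0.0210) and without the day-75 IHC library (adjusted p = 0.0492), and *Krt8* in IHCs against SCs passed with DESeq2 (adjusted p = 0.0178).

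Although the products of these genes form obligate pairs, their transcripts were not in a fixed ratio. Per kilobase of exon, *Krt8* over *Krt18* was 1.61 and 0.256 in SCs, 0.525 and 2.85 in cHCs, 13.9 and 1.83 in OHCs (P7), 3.35 in the OHC (P22) library that had both and 0.166 in the IHC library that had both. Libraries of the same cell type thus lay on opposite sides of 1 in SCs and in cHCs. The day-21 OHC (P22) library had 0 counts of all 3 keratins, and the day-75 IHC library had 0 counts of *Krt8* and *Krt18* but 254 of *Krt19*. Summed per kilobase, the 3 keratins reached 156 and 121 CPM per kilobase in SCs, 28.6 and 61.9 in cHCs, 9.91 and 1.53 in OHCs (P7), 0 and 8.12 in OHCs (P22) and 12.4 and 4.71 in IHCs.

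**Figure D3:**
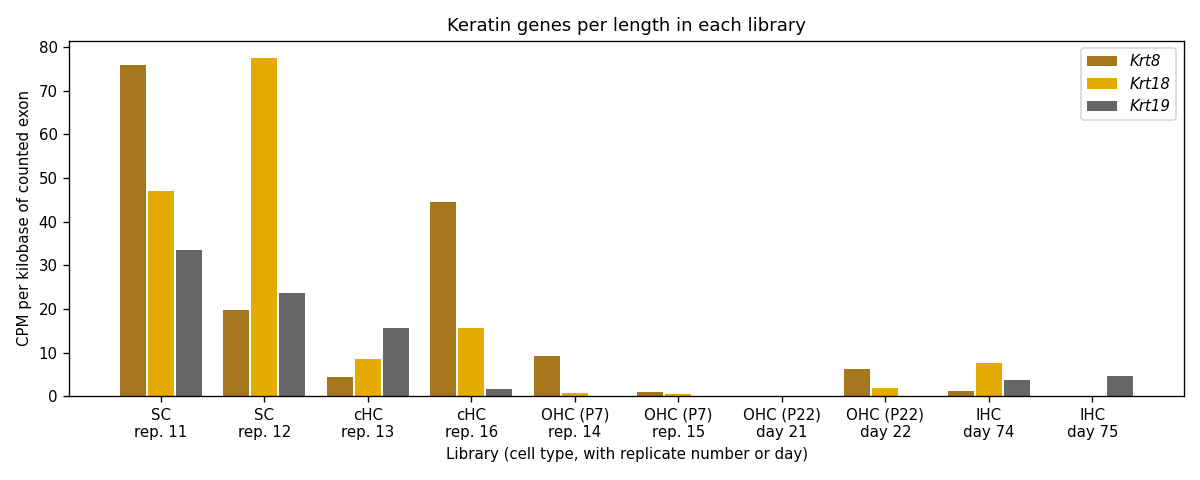
CPM per kilobase of exon (linear axis from 0) of *Krt8*, *Krt18* and *Krt19* in each library. SC and cHC libraries carry all 3 keratins in differing proportions, and the day-21 OHC (P22) library has no bar because all 3 are at 0 counts.

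Vimentin varied widely between libraries of the same cell type in SCs, cHCs and OHCs (P7). *Vim* was at 1139 CPM in SC replicate 11 and 47.4 CPM in SC replicate 12, a ratio of 24.0. In cHCs it was at 21.5 and 0.584 CPM, a ratio of 36.8, and in OHCs (P7) at 27.4 and 1.14 CPM. It was at 1.68 and 2.36 CPM in OHCs (P22) and at 25.7 and 61.4 CPM in IHCs. The SC libraries were above all cHC and OHC libraries, and SC replicate 12 lay within the range of IHCs. *Vim* fell by 8.19 on the log2 scale in OHCs (P22) against SCs (SE 2.19, adjusted p = 0.0440). The call was lost without SC replicate 11, where the change was -4.55 (adjusted p = 0.216), and without either OHC (P22) library (adjusted p = 0.187 without day 21 and 0.115 without day 22). Without SC replicate 12 the change was -9.14 (adjusted p = 0.0109). With cHC replicate 13 left out, cHCs against SCs (-9.98, adjusted p = 0.0466) and OHCs (P7) against SCs (-5.37, adjusted p = 0.0472) passed as well. In cHCs the difference from SCs was -5.75 (SE 1.96, adjusted p = 0.213), in OHCs (P7) -5.37 (SE 1.92, adjusted p = 0.170) and in IHCs -3.77 (SE 1.78, adjusted p = 0.301). The mean was 593 ± 772 CPM (SD, n = 2) in SCs, 43.6 ± 25.3 in IHCs, 14.3 ± 18.6 in OHCs (P7), 11.1 ± 14.8 in cHCs and 2.02 ± 0.483 in OHCs (P22), and no neighbours in this order differed by the test.

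Mesenchymal cells also carry vimentin, and all 7 of a list of mesenchymal markers are in the files. The list summed to 831 and 705 CPM in SCs, 17.8 to 196 CPM in cHCs, 74.9 to 406 CPM in OHCs (P7), 11.0 to 20.8 CPM in OHCs (P22) and 39.2 to 131 CPM in IHCs. In SCs the matrix proteoglycan *Lum* accounted for most of the sum, at 716 and 684 CPM, and *Col1a1* was at 0 and 0.711 CPM. *Col3a1*, *Dcn*, *Lum* and *Pou3f4* were at 0 in both OHC (P22) libraries. *Dcn* was at 96.3 and 18.7 CPM in SC replicates 11 and 12 and *Emilin2* at 18.9 and 0 CPM, both higher in replicate 11. *Col1a1*, *Col1a2*, *Col3a1* and *Pou3f4* went the other way, at 0 in replicate 11 and at 0.711, 1.29, 0.444 and 0.133 CPM in replicate 12. The part of mesenchymal RNA in the *Vim* levels was not tested. Glial markers, which number 6, summed to 243 to 270 CPM in SCs, 71.3 to 179 CPM in cHCs, 19.7 to 31.8 CPM in OHCs (P7), 21.4 to 83.3 CPM in OHCs (P22) and 126 to 228 CPM in IHCs, and leukocyte, endothelial and erythroid lists stayed at or below 28.5 CPM.

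Nestin was scarcely detected. *Nes* had 0 and 13 counts in SCs, 1 and 36 in cHCs, 0 and 3 in OHCs (P7), 0 in both OHC (P22) libraries and 3 in each IHC library. Its highest level was 0.915 CPM, in cHC replicate 16. SC and cHC libraries overlapped, with a log2 difference of 0.74 (SE 2.69, adjusted p = 0.947), and no difference of *Nes* passed the test.

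**Figure D4:**
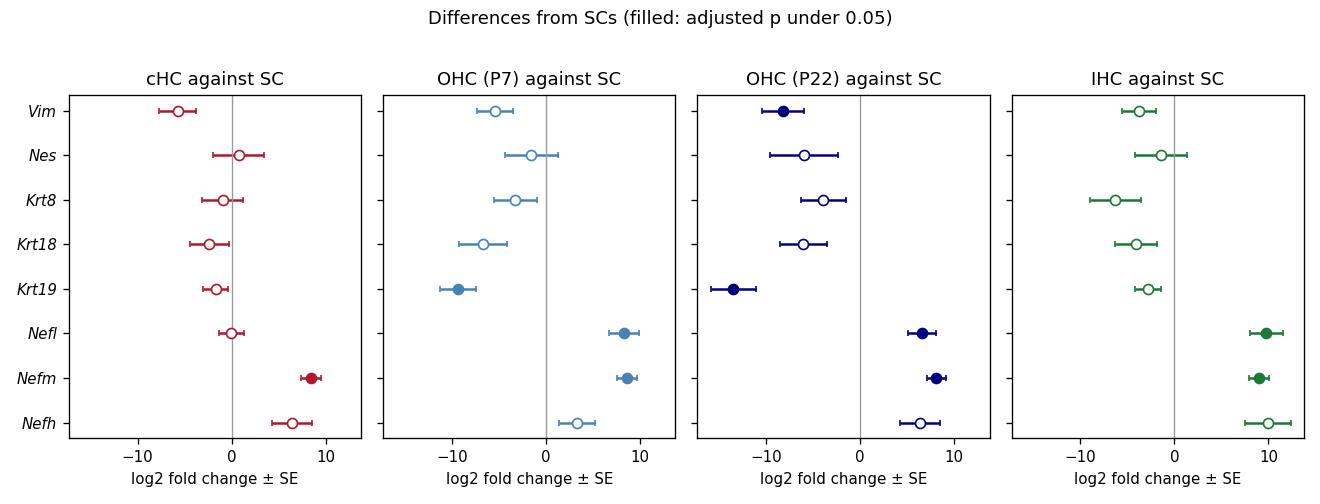
Log2 fold change against SCs, with a standard error derived from edgeR's F statistic, of the 8 tested members in cHCs, OHCs (P7), OHCs (P22) and IHCs. Filled points have an adjusted p under 0.05. *Nefm* is filled in all 4 panels, *Nefl* in all but cHCs, *Krt19* in both OHC groups and *Vim* in OHCs (P22); the 4 panels share the SC libraries.

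Counted over comparisons, 1 of 8 tested members passed in cHCs against SCs (*Nefm*, higher), where 1.84% of all tested genes passed. In OHCs (P7) against SCs 3 passed (*Nefl* and *Nefm* higher, *Krt19* lower) beside 3.41% of all genes. In OHCs (P22) against SCs 4 passed (*Nefl* and *Nefm* higher, *Vim* and *Krt19* lower) beside 8.02%, and in IHCs against SCs 2 passed (*Nefl* and *Nefm* higher) beside 2.65%. Against cHCs, 2 passed in OHCs (P22) (*Nefl* higher, *Krt19* lower) beside 3.18%, 1 passed in IHCs (*Nefl* higher) beside 0.924%, and 0 passed in OHCs (P7) beside 0.343%. For that last comparison edgeR gave 2 members with an unadjusted p under 0.05, limma-voom called 0 and DESeq2 called 2. Between endogenous hair cell groups edgeR called 0 members. For OHCs (P22) against OHCs (P7), where 0.551% of all genes passed, 0 members had an unadjusted p under 0.05, and limma-voom and DESeq2 called 0. For IHCs against OHCs (P7), beside 0.379%, 2 members had an unadjusted p under 0.05, limma-voom called 1 and DESeq2 called 2. For IHCs against OHCs (P22), beside 1.46%, 3 members had an unadjusted p under 0.05, limma-voom called 0 and DESeq2 called 2.

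Against SCs the medians of the families differed in sign. In cHCs against SCs the median log2 difference was 6.41 over the 3 neurofilament genes and -1.72 over the 3 keratins, beside 0.03 over all tested genes. A median of 3 genes is the value of 1 gene, here *Nefh* and *Krt19*. Neither passed the test, and *Nefl* was at -0.06. In OHCs (P22) against SCs the values were 6.60 and -6.03, beside 0.00, in OHCs (P7) against SCs 8.31 and -6.70, beside 0.00, and in IHCs against SCs 9.78 and -4.05, beside 0.00. In these comparisons the neurofilament value was that of *Nefl*, which passed, and the keratin value that of *Krt18*, which did not. In other comparisons the signs could be the same, as in OHCs (P22) against cHCs, with -0.09 and -3.66 beside -0.19, and in IHCs against OHCs (P22), with 3.18 and 1.98 beside 0.03. Per kilobase the most abundant member by group mean was *Vim* in SCs, *Krt8* in cHCs, *Nefl* in OHCs (P7) and IHCs, and *Nefm* in OHCs (P22). By CPM without regard to length it was *Nefm* in cHCs and OHCs (P7). The ranks per kilobase in SCs, cHCs and OHCs (P22) rested on 1 library each. In the day-22 OHC (P22) library *Nefm* was at 8.39 CPM per kilobase, below *Nefl* (14.6). In SC replicate 12 *Vim* was at 20.3 CPM per kilobase, below *Krt18* (77.6) and *Krt19* (23.7), and in cHC replicate 13 *Krt8* was at 4.43, below *Krt19* (15.7), *Nefm* (14.2), *Vim* (9.22) and *Krt18* (8.45).

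Filaments are tied to junctions, to other cytoskeletal fibres and to the nucleus by linker proteins, and other filament genes, lamins, plakins, desmosomal linkers and filament-associated genes were therefore listed beside the members. Of 39 listed genes 38 are in the files and 24 were tested. In cHCs against SCs edgeR called 0 of the 24, with 4 at an unadjusted p under 0.05, limma-voom called 0 and DESeq2 called 2. That comparison had 1.84% of all tested genes called. In OHCs (P22) against SCs 4 passed, 2 higher and 2 lower, beside 8.02% of all tested genes, and in OHCs (P22) against cHCs 3 passed, 1 higher and 2 lower, beside 3.18%. There were 2 calls in OHCs (P7) against SCs (3.41% of all genes), 2 in IHCs against SCs (2.65%), 1 in OHCs (P22) against OHCs (P7) (0.551%) and 3 in IHCs against OHCs (P22) (1.46%).

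The plakin *Dst* (dystonin), which connects filaments with actin and microtubules, was at 203 and 393 CPM in SCs, 623 and 845 CPM in cHCs, 976 and 876 CPM in OHCs (P7), 1086 and 1221 CPM in IHCs and 7547 and 4738 CPM in OHCs (P22). OHCs (P22) were above all other libraries and SCs below them. *Dst* was higher in OHCs (P22) by 4.37 on the log2 scale than in SCs (SE 0.47, adjusted p = 0.000299) and by 3.07 than in cHCs (SE 0.44, adjusted p = 0.00589), and both calls held with each library left out. It was higher by 2.73 than in OHCs (P7) (SE 0.44, adjusted p = 0.0307) and by 2.41 than in IHCs (SE 0.43, adjusted p = 0.0252), and these calls were lost without the day-21 OHC (P22) library (adjusted p = 0.0793 and 0.0721). The former was also lost without P7 replicate 14 or 15 (adjusted p = 0.0727 and 0.0695), and the latter without the day-74 or day-75 IHC library (adjusted p = 0.0859 and 0.0642). Its rise of 1.96 in IHCs against SCs (SE 0.42, adjusted p = 0.0342) was lost without SC replicate 11 (adjusted p = 0.117) or without the day-74 (adjusted p = 0.0629) or day-75 IHC library (adjusted p = 0.0912).

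*Jup*, the junction protein plakoglobin, was at 47.5 and 55.2 CPM in SCs, 87.7 and 121 CPM in cHCs, 291 and 200 CPM in OHCs (P7), 380 and 337 CPM in OHCs (P22) and 677 and 331 CPM in IHCs. SCs, cHCs and the endogenous hair cells formed 3 sets of ascending level without overlap. Against SCs *Jup* rose by 2.80 in OHCs (P22) (SE 0.53, adjusted p = 0.00905), 3.30 in IHCs (SE 0.55, adjusted p = 0.00823) and 2.26 in OHCs (P7) (SE 0.52, adjusted p = 0.0408). The last was lost without SC replicate 11 (adjusted p = 0.147) or 12 (adjusted p = 0.123) and without P7 replicate 14 (adjusted p = 0.221) or 15 (adjusted p = 0.0817), and the rise in IHCs was 2.69 without the day-74 IHC library (adjusted p = 0.0606).

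The desmosomal plakin *Dsp* (desmoplakin), which anchors keratin filaments, was at 62.2 and 214 CPM in SCs, 108 and 8.97 CPM in cHCs, 4.51 and 22.03 CPM in IHCs, 2 counts in each OHC (P7) library and 0 counts in both OHC (P22) libraries. Like *Krt19*, it was at 0 in OHCs (P22). It was at least 708-fold lower there than in SCs (adjusted p = 0.00520), at least 299-fold lower than in cHCs (adjusted p = 0.0146) and at least 68.1-fold lower than in IHCs (adjusted p = 0.0418), and in OHCs (P7) it fell by 10.57 against SCs (SE 1.89, adjusted p = 0.0143). *Pof1b*, an actin-binding protein of epithelial junctions, was at 97.6 and 57.7 CPM in SCs, 20.4 and 7.24 CPM in cHCs, 7.91 and 4.36 CPM in OHCs (P7), 17.1 and 7.32 CPM in IHCs and 0 in OHCs (P22). It was at least 398-fold lower in OHCs (P22) than in SCs (adjusted p = 0.00289), at least 70.8-fold lower than in cHCs (adjusted p = 0.0134) and at least 62.6-fold lower than in IHCs (adjusted p = 0.0262). The part of supporting cell RNA in the IHC levels of *Dsp* and *Pof1b* was not tested. Without the day-21 OHC (P22) library the differences from cHCs were lost for *Dsp* (adjusted p = 0.0568) and *Pof1b* (adjusted p = 0.0529), and the differences from IHCs were lost without that library (adjusted p = 0.154 and 0.0902) or without the day-22 library (adjusted p = 0.0931 and 0.0592). With cHC replicate 16 alone, these bounds against cHCs were 46-fold for *Dsp* and 37.1-fold for *Pof1b*, and with cHC replicate 13 alone 552-fold and 105-fold. The bound of *Dsp* against SCs was 319-fold without SC replicate 12 and higher without SC replicate 11. That of *Pof1b* against SCs was 500-fold without SC replicate 12 and 296-fold without SC replicate 11. Against IHCs, the bounds were 23.1-fold for *Dsp* and 87.7-fold for *Pof1b* with the day-74 library alone, and 113-fold and 37.5-fold with the day-75 library alone. The fall of *Dsp* in OHCs (P7) was lost without P7 replicate 14 (adjusted p = 0.0551).

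**Figure D5:**
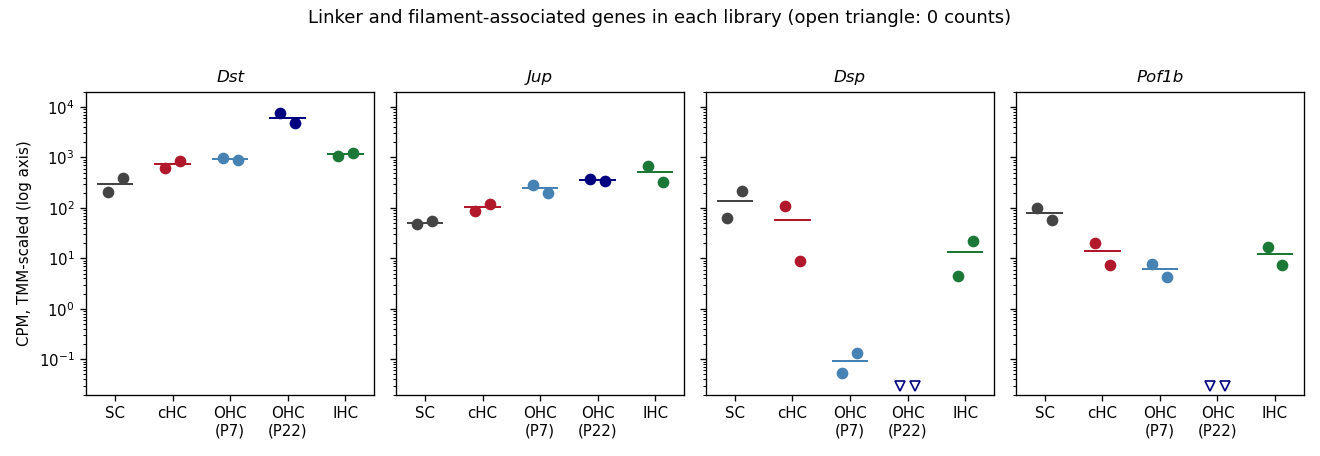
Level of *Dst*, *Jup*, *Dsp* and *Pof1b* in each library, as TMM-scaled CPM on a log axis; points are libraries, horizontal lines are group means, and open triangles are libraries with 0 counts. *Dst* is highest in OHCs (P22), between 4738 and 7547 CPM, and *Dsp* and *Pof1b* are at 0 in both OHC (P22) libraries.

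Among the 16891 tested genes, the pattern most like that of *Nefm* over the 10 libraries, by Pearson's r of log2 CPM, was that of *Camk2b* (0.989), *Scg3* (0.989) and *Snap25* (0.986). For *Nefl* these were *Chst2* (0.967), *Gcnt4* (0.959) and *Fat3* (0.950), and for *Nefh* *Zfp804a* (0.974), *Sf3b3* (0.971) and *6330407J23Rik* (0.957). *Krt19* was followed most closely by *Vill* (0.985), *1190002N15Rik* (0.983) and *Rhou* (0.983). For *Vim* they were *Gapdh* (0.953), *Gm12033* (0.948) and *Plekhb1* (0.937), for *Krt8* *Rab35* (0.938) and *Armcx6* (0.919), for *Krt18* *Nubpl* (0.943), *Cyth1* (0.925) and *Syce2* (0.917), and for *Nes* *Nptx2* (0.925), *Bmp8a* (0.923) and *Gm2670* (0.921). The 10 points are 5 pairs of libraries that share cell type, number series and, in part, depth, and the values describe these libraries only.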

How the data were processed

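Gene expression was measured by bulk RNA-seq in 10 libraries of hand-picked cells, 2 of each of 5 cell types. According to the study's methods, cDNA was amplified isothermally from a single primer and paired-end reads were called with CASAVA 1.7, trimmed, aligned to mm9 by STAR followed by BWA and assigned to genes by HTSeq. The deposited files hold the authors' raw counts per gene symbol, with no normalization. Amplification from few cells adds spread between libraries. Unassigned reads took no part in library sizes, with 26.5% to 50.4% of reads on no feature that HTSeq counted. The files of 4 libraries were attached to another sample record; each file was matched to its library by the title in its name and by proportionality to the study's CPM table, where the matched file had a coefficient of variation of at most 0.000138% and the next file at least 170.4%.

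Levels are CPM with TMM factors. Differences were tested 2-sided with edgeR 4.0.16 in R 4.3.3 (filterByExpr by cell type, 16891 genes, 1 quasi-likelihood model across the 10 libraries with F-tests, common dispersion 1.12, Benjamini-Hochberg adjustment over all tested genes of a comparison, threshold 0.05). The standard error is the log2 fold change divided by the square root of F. The main test is edgeR because the files hold counts; limma-voom 3.58.1, which the study names, DESeq2 1.42.0, RLE factors, no filter, fits of the compared cell types only, the files as attached and each library left out were alternatives. Values for the 4 named linker and filament-associated genes under these settings were added after seeing the data. Zero libraries were bounded with a floor of 3 counts per library, which covers counting error only. Exon lengths came from GENCODE vM1 on mm9, which names 33260 of the 34590 symbols.

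On simulated counts for cHCs against SCs, 197 tested genes were changed by 4 log2 units. The share recovered was 16.8% for edgeR, 12.7% for limma-voom and 36% for DESeq2. The share of calls that were false was 8.33%, 7.41% and 75.2% in the same order. The simulation borrowed its gene-wise variability from the edgeR fit, which can favour edgeR. Outside the changed genes it held no differences between cell types, unlike the measured libraries. These shares therefore describe the simulation and are not error rates of the tools on the measured libraries. The members and lists were chosen with earlier results of these data known. Named were all 9 members, listed linker genes that passed in cHCs against SCs or in OHCs (P22) against SCs or cHCs, and the 3 genes most correlated with each detected member. Some genes that these rules name are not reported here, and counts over the linker list leave them out. Single-cell data of the study were not analysed here. Calculations used Python 3.11.15, numpy 2.4.6 and pandas 2.3.3, and figures matplotlib 3.10.9.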

Additional observations from a re-analysis of the deposited data

How the results depend on the processing

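With 2 libraries per cell type, power is low and absent calls say little. No paired analysis was run, since the cell types share no replicate numbers. The titles of SC replicate 12, cHC replicate 13 and P7 replicate 15 carry a sample number that the other titles lack. These libraries held 22597688, 19621193 and 15016129 counts on genes. SC replicate 11, cHC replicate 16 and P7 replicate 14 held 40518766, 33162033 and 37338042. Whether the titles mark a batch is not stated, and this division was not modelled. Over the 10 comparisons edgeR made 13 member calls, as did limma-voom and edgeR with RLE factors. The count was 27 with DESeq2, 33 without the filter on low counts and 11 with only the compared cell types. Over all genes, the calls were 3843 for edgeR, 8008 for limma-voom and 3772 with RLE factors. They were 21147 for DESeq2, 11630 without the filter and 2841 with only the compared cell types. Counts of members and linker genes under each setting stand beside these totals. Where the setting changed the count of a comparison by over 1.5 times, DESeq2 called 3 members for cHCs against SCs, 5 for OHCs (P7) against SCs, 4 for IHCs against SCs, and 2 each for OHCs (P7) against cHCs, IHCs against OHCs (P7) and IHCs against OHCs (P22). Without the filter, the counts were 3, 5, 7 and 5 for cHCs, OHCs (P7), OHCs (P22) and IHCs against SCs, 2 for OHCs (P7) and 2 for IHCs against cHCs, 1 for OHCs (P22) against OHCs (P7), and 2 and 3 for IHCs against OHCs (P7) and (P22). limma-voom called 1 for OHCs (P22) against cHCs and 1 for IHCs against OHCs (P7), and the fit of only OHCs (P22) and cHCs called 0. The files as attached to the records gave 0 calls of members and of all genes, where the main files gave 3843, and reversed *Nefl* in OHCs (P22) against cHCs to -0.99; the attached files mix cell types within groups.

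With each library left out in turn, the counts ranged from 1 to 2 for cHCs against SCs, 2 to 4 for OHCs (P7), 2 to 5 for OHCs (P22) and 2 to 3 for IHCs against SCs, 0 to 1 for OHCs (P7) against cHCs, 0 to 2 for OHCs (P22) against cHCs, 0 to 1 for IHCs against cHCs and 0 to 1 for IHCs against OHCs (P22). Summed over the 10 comparisons there were 11 to 17 member calls. Apart from that reversal, the 13 calls kept their direction under every setting. Leaving out the day-22 OHC (P22) library moved the median log2 difference of all genes between OHCs (P22) and cHCs from -0.19 to -1.32. limma-voom lost *Vim* (adjusted p = 0.281) and *Nefl* (0.0560) in OHCs (P22) against SCs and *Nefl* against cHCs (0.0813), and fits of the compared cell types only lost *Nefl* in OHCs (P7) (0.0532) and OHCs (P22) (0.115) against SCs and *Nefl* (0.145) and *Krt19* (0.119) in OHCs (P22) against cHCs. Of the linker calls, *Jup* in OHCs (P7) against SCs was lost with limma-voom (0.0529), RLE factors (0.0538) and only the compared cell types (0.0794), *Dst* in IHCs against SCs with RLE factors (0.0643) and only the compared cell types (0.0821), and *Dsp* in IHCs against OHCs (P22) with limma-voom (0.152). Fits of the compared cell types only also lost *Dst* in OHCs (P22) against OHCs (P7) (0.0899) and IHCs (0.0638), *Dsp* against cHCs (0.0558) and IHCs (0.185) and *Pof1b* against cHCs (0.110) and IHCs (0.183). The cause was not tested. Of the listed linker genes DESeq2 called 2, 11, 10 and 8 in cHCs, OHCs (P7), OHCs (P22) and IHCs against SCs, 7, 7 and 2 in OHCs (P7), OHCs (P22) and IHCs against cHCs, 3 in OHCs (P22) and 2 in IHCs against OHCs (P7), and limma-voom called 2, 5 and 2 against cHCs. The most abundant member by CPM was also that per kilobase in 3 of 5 cell types. RLE factors moved the median of all genes by under 0.1 in every comparison, and limma-voom moved it by at most 0.26, from 0.00 to 0.26 in OHCs (P7) against SCs.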
